A study of Homo sapiens with 6 samples.

Results

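A set of 10 small nucleolar RNA (snoRNA) host long non-coding RNAs was followed in Jurkat cells exposed to bisphenol AF: GAS5, SNHG1, SNHG5, SNHG6, SNHG7, SNHG8, SNHG12, SNHG15, SNHG16 and SNHG29. They were taken by symbol from the deposited gene tables, where all 10 had a row among 60856 features, and all 10 passed the filter on low counts that left 15490 genes for testing. Jurkat is an established leukemic line of human T lymphocytes, labelled wild type here, and bisphenol AF (BPAF) is a fluorinated analogue of bisphenol A. The control group was 3 libraries of cells given the solvent dimethyl sulfoxide (DMSO) at 0.1%, and the exposed group was 3 libraries of cells given 1 µM BPAF. Exposure lasted 12 h by the sample labels but 24 h by the treatment protocol. Libraries within a group are described as biological replicates, and all come from 1 cell line. RNA with poly(A) tails was read in stranded paired-end libraries of 20253656 to 22617613 counts each.

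A snoRNA host gene is transcribed and spliced like any other gene, but its introns hold snoRNAs. After splicing, exonucleases trim the freed intron back to the snoRNA, which then guides 2′-O-methylation (box C/D type) or pseudouridylation (box H/ACA type) of ribosomal RNA and other RNAs. The joined exons leave the nucleus, and because several of these RNAs carry short reading frames they are translated and degraded by nonsense-mediated decay. Many host genes, coding and non-coding, start with a terminal oligopyrimidine (TOP) tract, a C followed by further C or T, as ribosomal protein genes do. Poly(A) selection captures the spliced host transcript and not the snoRNA.

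The start sites differ among the hosts, and 5 are shown: the windows of SNHG5 and SNHG12, which hold both features searched, those of SNHG7 and SNHG8, which hold TATAA alone, and that of SNHG1, the host with the smallest p, which holds neither. Capitals at the start mark the run of C and T from the first transcribed base where that base is C, and capitals upstream mark the letters TATAA. Each window has 40 bases before the RefSeq start and 20 from it (GRCh38.p14), 5′ to 3′ along the gene.
SNHG1, chr11:62855866-62855925, minus strand: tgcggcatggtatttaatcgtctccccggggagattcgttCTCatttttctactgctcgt
SNHG5, chr6:85678714-85678773, minus strand: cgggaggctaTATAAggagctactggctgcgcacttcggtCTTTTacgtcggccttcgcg
SNHG7, chr9:136728165-136728224, minus strand: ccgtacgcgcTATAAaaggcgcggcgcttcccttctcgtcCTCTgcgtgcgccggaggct
SNHG8, chr4:118278722-118278781, plus strand: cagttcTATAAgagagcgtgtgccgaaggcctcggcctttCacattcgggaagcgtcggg
SNHG12, chr1:28581854-28581913, minus strand: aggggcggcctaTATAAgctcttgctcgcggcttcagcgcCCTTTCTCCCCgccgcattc
RefSeq windows were matched for 8 of the 10 hosts, with no entry for SNHG6 or SNHG15. A C was the first base in 5 of these 8 windows, against 14.7% of 35116 RefSeq windows. A pyrimidine run of at least 5 bases from that C was present in 2 of 8, SNHG5 with 5 bases and SNHG12 with 11, against 4.07% of all windows and 3.53% of lncRNA windows. Runs were counted from the RefSeq base alone, so the C and T bases directly before the SNHG8 start were left out. The letters TATAA, read on the sense strand 40 to 16 bases before the start, were present in 4 of 8, 28 to 34 bases upstream, against 3.91% of all windows. The same box on the other strand, TTATA, was in 0 of 8 and in 1.73% of all windows. The 44 protein-coding snoRNA hosts with a window had a run of at least 5 bases in 43.2% and TATAA in 13.6%.

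A gene has more than 1 annotated start, and GENCODE release 29 transcripts (GRCh38) of several hosts begin at another base than the RefSeq start. The most frequent run-bearing starts of 3 of them are shown because they share the same first 6 bases, in capitals, and the start of the longest SNHG15 transcript is shown beside them because it has no such run.
GAS5-210: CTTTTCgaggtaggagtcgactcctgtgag
SNHG16-204: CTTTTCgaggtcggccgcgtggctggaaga
LRRC75A-AS1-222, a transcript of SNHG29: CTTTTCattcccgttgttatggagggccac
SNHG15-202: agacctgtactccgtactccgtacttcgta
A run of at least 5 bases started 6 of 29 GAS5 transcripts, 6 of 30 SNHG29 transcripts and 2 of 8 SNHG16 transcripts. The share was highest for SNHG6, at 3 of 5, and the counts were 4 of 17 for SNHG12, 1 of 5 for SNHG8 and 3 of 23 for SNHG5. For SNHG1 the count was 1 of 25, and for SNHG15 and SNHG7 it was 0 of 10 and 0 of 4. Over all 206694 GENCODE transcripts the share was 2.41%. The run-bearing starts of SNHG16 and SNHG8 lay inside the RefSeq windows of these hosts. Their runs were missed in those windows because runs were counted from the RefSeq base alone. Which of these starts Jurkat cells use was not measured.

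Per unit of transcript length, the 10 hosts kept the same order in both groups. In TPM, the authors' length-scaled unit, the DMSO level was highest for SNHG29 at 519.7 ± 18.4 (SD, n = 3) and lowest for SNHG12 at 40.1 ± 1.43. Between them came GAS5 (450.5 TPM), SNHG6 (333 TPM), SNHG1 (315 TPM), SNHG5 (274 TPM), SNHG8 (228 TPM), SNHG15 (163 TPM), SNHG16 (85.04 TPM) and SNHG7 (75.8 TPM). The ranges over libraries of neighbours in that order did not overlap in either group. Some of these gaps were narrow: in BPAF the lowest SNHG5 library, 238.3 TPM, was just above the highest SNHG8 library, 235.3 TPM, and the lowest SNHG1 library, 261.6 TPM, just above the highest SNHG5 library, 258.4 TPM.

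SNHG1 and SNHG15 were the hosts called lower with BPAF, and no host was called higher. SNHG1 lost 22.4% of its DMSO level and SNHG15 lost 15.9%. SNHG5 was 17.1% lower without a call. Levels compared between groups are counts scaled to a common library total by the trimmed mean of M-values (TMM-scaled CPM), and each call is an edgeR quasi-likelihood test with a Benjamini-Hochberg adjusted p under 0.05 over all 15490 genes. The 2 of 10 hosts called lower stand beside 3.4% of all tested genes, 5.66% of the 6532 genes in the hosts' range of CPM, and 0.572% of the 1922 tested lncRNA genes. The 0 of 10 called higher stand beside 2.65%, 3.29% and 5.36% of the same sets.

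SNHG1 (ENSG00000255717, chr11:62851988-62855914, minus strand, GRCh38) is the host with 9 snoRNA entries in RefSeq, among them SNORD25 to SNORD31. Its level was 319.0, 325.9 and 338.2 CPM in the DMSO libraries and 244.1, 268.5 and 250.3 CPM in the BPAF libraries. Every BPAF library lay below every DMSO library, and the gap between the groups was wider than the range within either. Mean SNHG1 was 327.7 ± 9.69 CPM in DMSO and 254.3 ± 12.7 CPM in BPAF (SD, n = 3). The log2 fold change was -0.37 with a standard error (SE) of 0.035 (edgeR adjusted p = 2.96e-05). Of the 11 lncRNA genes called lower in these cells SNHG1 had the smallest p, an ordering looked at after the values were known.

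SNHG15 (ENSG00000232956, chr7:44983023-44986961, minus strand), an unstable RNA of high turnover, hosts the single H/ACA snoRNA SNORA9. Its DMSO libraries stood at 139.8, 143.5 and 157.2 CPM and its BPAF libraries at 122.7, 126.1 and 121.7 CPM. The groups did not overlap, and DMSO replicate 3 was the highest of the 6. Mean SNHG15 was 146.8 ± 9.19 CPM in DMSO and 123.5 ± 2.29 CPM in BPAF. The log2 fold change was -0.25 with an SE of 0.040 (edgeR adjusted p = 0.00136).

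GAS5 and SNHG5 did not pass the threshold although their groups did not overlap. GAS5 (ENSG00000234741, chr1:173863900-173868882, minus strand), which accumulates in growth-arrested cells and carries a TOP tract, has 11 snoRNA entries, the most of the 10 hosts. It measured 174.2, 167.5 and 172.4 CPM in DMSO and 159.7, 163.6 and 155.6 CPM in BPAF. The libraries of each group lay close together, and the log2 fold change was small, -0.10 with an SE of 0.032 (edgeR adjusted p = 0.0625). SNHG5 (ENSG00000203875, chr6:85660950-85678748, minus strand), the host of SNORD50A and SNORD50B, measured 117.6, 106.1 and 131.7 CPM in DMSO and 94.6, 98.8 and 101.2 CPM in BPAF. Its fold change was as large as that of SNHG15. Its DMSO libraries were spread more widely, at 118.5 ± 12.8 CPM against 146.8 ± 9.19 CPM for SNHG15. The log2 fold change was -0.27 with an SE of 0.075 (edgeR adjusted p = 0.0867). In all, 4 of 10 hosts had every BPAF library below every DMSO library, against 12.8% of all tested genes, and 0 had every BPAF library above, against 12.0%.

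The other 6 hosts had overlapping groups and adjusted p-values of 0.170 or more. SNHG29 (ENSG00000175061, chr17:16438822-16478678, plus strand, named LRRC75A-AS1 in GENCODE release 29), which hosts SNORD49A, SNORD49B and SNORD65, measured 311.9, 291.1 and 316.3 CPM in DMSO and 286.4, 295.9 and 288.4 CPM in BPAF. The overlap came from DMSO replicate 2, which lay inside the BPAF range. Its log2 fold change was -0.08 with an SE of 0.032 (edgeR adjusted p = 0.170). SNHG6 (ENSG00000245910, chr8:66921684-66926398, minus strand), the host of SNORD87, went from 65.1 ± 4.50 to 61.3 ± 1.89 CPM. SNHG8 (ENSG00000269893, chr4:118278709-118279823, plus strand), the host of SNORA24, went from 52.5 ± 3.04 to 50.5 ± 1.74 CPM. The log2 fold changes of this pair were -0.09 with an SE of 0.051 and -0.05 with an SE of 0.052.

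SNHG12, SNHG16 and SNHG7 had the fold changes nearest to 0. SNHG12 (ENSG00000197989, chr1:28578538-28583132, minus strand), which hosts SNORD99 and 3 H/ACA snoRNAs, was at 29.8 ± 1.28 CPM in DMSO and 28.9 ± 2.20 CPM in BPAF. SNHG16 (ENSG00000163597, chr17:76557766-76565348, plus strand), which hosts the SNORD1 snoRNAs, was at 124.1 ± 5.78 and 124.1 ± 2.80 CPM. SNHG7 (ENSG00000233016, chr9:136721366-136728184, minus strand), the host of SNORA17A and SNORA17B, was at 54.3 ± 1.81 and 55.6 ± 2.85 CPM. Their log2 fold changes were -0.04 with an SE of 0.066, -0.00086 with an SE of 0.038, and 0.03 with an SE of 0.050. SNHG7 was the single host with a value above 0.

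**Figure D1:**
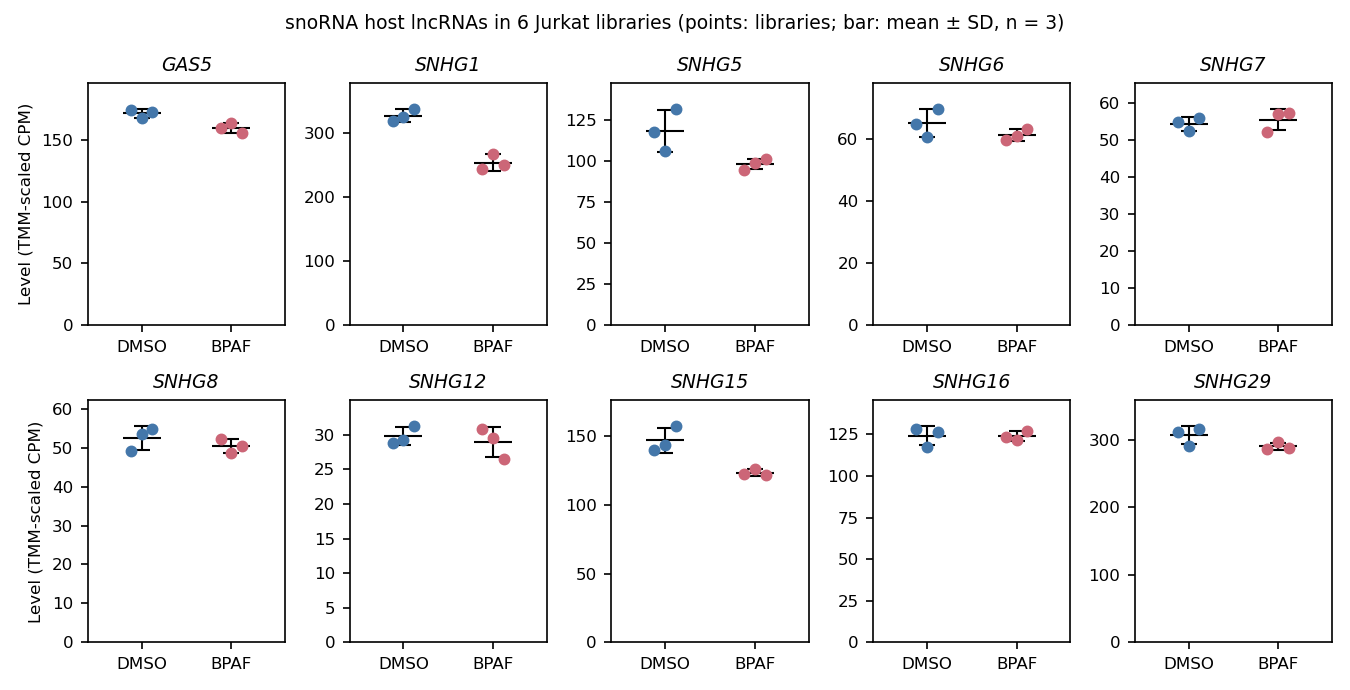
Level of each of the 10 snoRNA host lncRNAs in the 3 DMSO (blue) and 3 BPAF (red) Jurkat libraries, in TMM-scaled CPM on axes that start at 0; points are libraries and bars the mean ± SD. SNHG1 and SNHG15 show the separated groups of the 2 called genes, SNHG5 and GAS5 are separated without a call, and the other 6 overlap.

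Over the 10 hosts the median log2 fold change was -0.083, with 9 of 10 below 0, SNHG16 among them at -0.00086 with a sign that turned in 9 of 17 alternatives. That median was -0.047 without DMSO replicate 3. On log2 of the deposited TPM plus 1 it was -0.029, where the median of all tested genes was 0.0775. On the counts the median was 0.0019 over all tested genes, with 49.2% below 0. Over genes in the same CPM range it was -0.02, with 57.8% below 0. Over the tested lncRNA genes it was 0.17, with 28.1% below 0. The summed level of the 10 hosts was 1388, 1348 and 1454 CPM in DMSO and 1226, 1271 and 1242 CPM in BPAF. All 3 BPAF sums lay below the DMSO sums. Without SNHG1 and SNHG15 the sums were 929, 878 and 959 CPM against 859, 876 and 869.7 CPM, and the lowest DMSO library was then close to the highest BPAF library. DMSO replicate 3 was the highest of its group for 8 of the 10 hosts and DMSO replicate 2 the lowest for 6. In bulk RNA of this kind, less RNA per cell and fewer cells of a kind cannot be told apart.

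The other genes named as snoRNA hosts of this kind, of which GENCODE classes SNHG32 as protein-coding, included 1 called higher and 1 called lower. Of 22 further symbols, 21 had a row and 18 were tested, with 1 gene higher, 1 lower and a median log2 fold change of 0.05. Among all tested genes 2.65% were called higher and 3.4% lower, and among tested lncRNA genes 5.36% and 0.572%. ZFAS1, which hosts a cluster of SNORD12 snoRNAs, measured 75.1, 70.2 and 80.8 CPM in DMSO and 62.5, 61.1 and 66.8 CPM in BPAF. The groups did not overlap, and ZFAS1 fell by 0.25 on the log2 scale with an SE of 0.052 (edgeR adjusted p = 0.00798). SNHG10 rose, with 15.1, 15.7 and 17.1 CPM in DMSO and 19.8, 19.2 and 21.0 CPM in BPAF. Its groups did not overlap either, and the log2 fold change was 0.33 with an SE of 0.079 (edgeR adjusted p = 0.0162). Neither call held in every fit that left out 1 library: ZFAS1 was not called without BPAF replicate 1 (edgeR adjusted p = 0.0524), and SNHG10 was not called when replicate 1 of either group or BPAF replicate 3 was left out (highest adjusted p = 0.0913). DESeq2 did not call SNHG10, but called it without independent filtering (DESeq2 adjusted p = 0.0424). On the deposited TPM neither ZFAS1 nor SNHG10 was called. A further pair of genes had small p-values and no call: SNHG17 at 0.12 (adjusted p = 0.0840) and EPB41L4A-AS1 at -0.23 (adjusted p = 0.0916). The summed level of the 18 was 829, 811 and 843 CPM in DMSO and 858, 823 and 849.9 CPM in BPAF. These ranges overlapped. Of the 18, 2 had every BPAF library below every DMSO library and 5 every BPAF library above, against 12.8% and 12.0% of all tested genes. Among the 11 lncRNA genes called lower, 3 were in the 2 lists of hosts, namely SNHG1, SNHG15 and ZFAS1. Those lists hold 10 and 18 tested genes, SNHG32 included, and 1922 lncRNA genes were tested. Both lists were chosen with earlier results of these data known, so this count is not independent evidence. Among the 6532 tested genes in the CPM range of the 10 hosts, 5.66% were called lower.

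**Figure D2:**
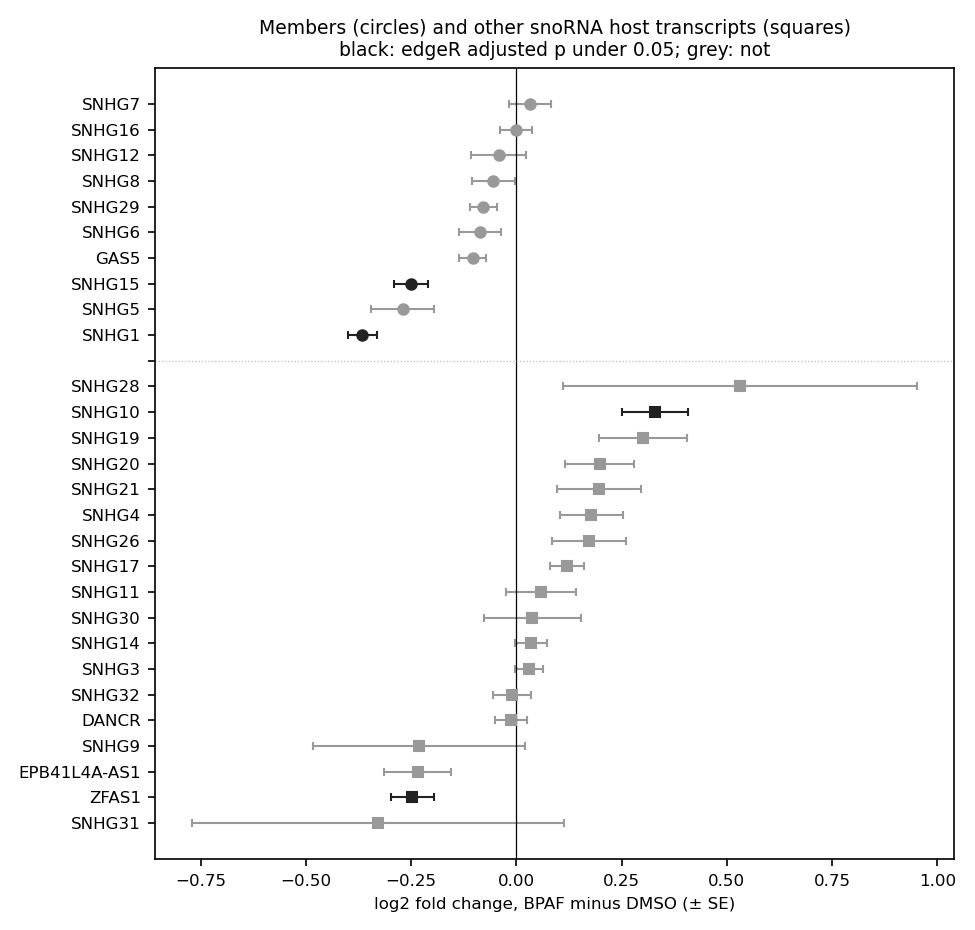
Log2 fold change (BPAF minus DMSO, ± SE) of the 10 hosts (circles, above the dotted line) and of 18 other snoRNA host transcripts (squares), black where the edgeR adjusted p is under 0.05. SNHG1 and SNHG15 lie at -0.37 and -0.25, and the other hosts spread on both sides of 0 with ZFAS1 and SNHG10 called in opposite directions.

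Protein-coding genes that carry snoRNAs in their introns included many called lower. Of 45 such genes, all tested, 18 were called lower and 0 higher, against 3.4% and 2.65% of all tested genes. The median log2 fold change was -0.12, and 42 of 45 were below 0, against 49.2% of all tested genes. The list holds many ribosomal protein genes, whose direction in these libraries was known when it was written, so the count is not independent evidence. RPSA, a protein of the small ribosomal subunit, was at 1778 ± 56.7 CPM in DMSO and 1541 ± 36.6 CPM in BPAF, and its log2 fold change was -0.21 with an SE of 0.030 (edgeR adjusted p = 0.000585). HSPA8, a constitutive heat shock chaperone, had a log2 fold change of -0.18, and RPL10 and RPL23, proteins of the large subunit, had -0.17 and -0.26. These 4 remained called with each library left out. With 1 library left out, the count of 18 ranged from 7 without BPAF replicate 1 to 23 without DMSO replicate 2. It was 9 without DMSO replicate 1 and 9 without BPAF replicate 3. Other settings on the counts gave from 14, with upper quartile scaling, to 24, with DESeq2. On the deposited TPM the count was 0. On log2 of the TPM plus 1 the median of the list was -0.00044, where the median of all genes stood at 0.08.

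Genes whose products act on host RNAs are set beside the 3.4% of all tested genes called lower. Of 19 genes for snoRNP proteins and their assembly, 1 was called lower, and the list median was -0.06. This was the assembly factor ZNHIT3, which went from 54.6 ± 1.27 to 47.1 ± 2.60 CPM (edgeR adjusted p = 0.0173). ZNHIT3 was not called without DMSO replicate 1, DMSO replicate 3 or BPAF replicate 1 (highest edgeR adjusted p = 0.122). NOP58, NOP56 and RUVBL2, with core and assembly roles in box C/D particles, had log2 fold changes of -0.09, -0.06 and -0.07 without a call. On the deposited TPM their values were above 0, at most 0.022, and the list median was 0.05. The median of all tested genes was higher there, 0.0775 on log2 TPM plus 1 and 0.089 on log2 TPM plus 0.1. Of 20 nonsense-mediated decay genes, UPF3B, an exon junction decay factor, fell by 0.20 on the log2 scale (edgeR adjusted p = 0.0238) and the median was 0.0042. Of the 6 fits that left out 1 library, UPF3B was called in 1, without DMSO replicate 2 (highest edgeR adjusted p = 0.0883), and DESeq2 did not call it. RBM8A and MAGOHB of the exon junction complex and the release factor gene ETF1 had values of -0.08, -0.12 and -0.07 without a call. On the deposited TPM, ETF1 was above 0, at most 0.055, and below the median of all tested genes.

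Of 14 regulators of TOP messenger RNAs, 2 were called lower, beside the same 3.4% of all tested genes. CNBP, a nucleic acid binding protein, was at -0.14 on the log2 scale (edgeR adjusted p = 0.00896). EIF4E, the cap binding protein, was at -0.13 (edgeR adjusted p = 0.0385). CNBP was not called without BPAF replicate 1 (edgeR adjusted p = 0.0726), and EIF4E was called in 0 of 6 fits that left out 1 library (highest edgeR adjusted p = 0.131). On the deposited TPM the EIF4E value was above 0, at most 0.027, without a call. The median of all tested genes was 0.0775 or more in those fits. The kinase gene MTOR and its upstream inhibitor TSC1 had 0.09 and 0.11 without a call. Of 18 genes for intron turnover and RNA trimming, 0 were called by edgeR and 1 was called higher by limma-voom. EXOSC9, DIS3, MTREX and XRN2, parts and partners of the nuclear exonucleases, had log2 fold changes of -0.09, -0.10, -0.09 and -0.07. Each had groups that did not overlap and an adjusted p of 0.123 or more (edgeR). These were the 4 of 18 with every BPAF library below every DMSO library, against 12.8% of all tested genes. In 1 of 18, EXOSC6, every BPAF library lay above, against 12.0% of all tested genes. EXOSC6 went from 1.28 ± 2.10 CPM in DMSO to 5.95 ± 3.26 CPM in BPAF, a rise of 2.24 on the log2 scale without a call. XRN2 was above 0 on the deposited TPM, at most 0.015, and below the median of all tested genes there.

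**Figure D3:**
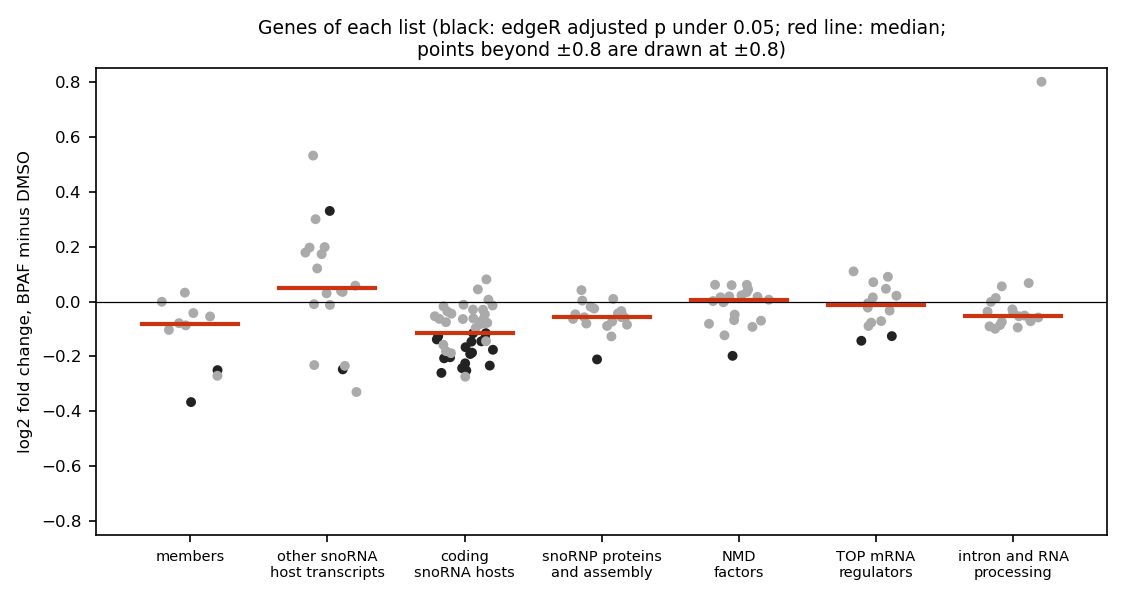
Log2 fold change (BPAF minus DMSO) of every tested gene in the 10 hosts and 6 comparison lists, 1 point per gene, black where the edgeR adjusted p is under 0.05, with red lines at the list medians. The coding hosts have the lowest median (-0.12) and 18 of 45 called lower; 1 gene of the intron list beyond the axis, EXOSC6, which was not called, is drawn at its edge.

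The snoRNAs in the introns were not measured. RefSeq places 37 snoRNA entries inside the 10 hosts, from 1 in SNHG6, SNHG8 and SNHG15 to 11 in GAS5. The count table had 26 snoRNA rows inside these genes, 21 at 0 in every library, and the highest deposited value in any library was 1.74 counts. Of the 25 listed snoRNA symbols with a row, 0 reached the filter. A snoRNA from each of the 2 called hosts is shown, to show what the spliced host level does not report on. In SNORD27 the capitals mark the C and D boxes (TGATGA and CTGA), and in SNORA9 the ACA box, on GENCODE release 29 transcripts.
SNORD27 in SNHG1, chr11:62855012-62855083, minus strand: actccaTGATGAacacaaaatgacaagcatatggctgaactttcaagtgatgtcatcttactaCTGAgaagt
SNORA9 in SNHG15, chr7:44985378-44985510, minus strand: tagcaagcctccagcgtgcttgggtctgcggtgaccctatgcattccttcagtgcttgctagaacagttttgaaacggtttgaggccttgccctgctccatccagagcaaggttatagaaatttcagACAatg
Both rows held 0 counts over the 6 libraries, which in poly(A)-selected RNA says nothing of the amount of either snoRNA.

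Neighbouring genes were read beside the hosts, since no source used here gives the strand setting of the counting. SNHG1 starts 188 bases from SLC3A2, a gene on the opposite strand that encodes the heavy chain of amino acid transporters. SLC3A2 was at 258 ± 4.86 CPM in DMSO and 247 ± 5.53 CPM in BPAF, with overlapping groups and a log2 value of -0.06 for the fold change (edgeR adjusted p = 0.288). Exons of SNHG1, SNHG5, SNHG8 and SNHG15 overlapped no annotated gene on the opposite strand. Exons of SNHG7, SNHG12 and SNHG29 overlapped those of DIPK1B, TRNAU1AP and LRRC75A, so reads of each pair may not be separated. The log2 fold changes of these 3 neighbours were 0.04, -0.15 and -0.19, and none was called. The genes whose exons overlap those of GAS5, SNHG6 and SNHG16 did not reach the filter. SNHG6 and SNHG15 had whole deposited counts (tolerance 1e-09) in all 6 libraries, SNHG1 in 2, and GAS5, SNHG7, SNHG16 and SNHG29 in 0.

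The 2 calls held in all 6 fits that left out 1 library, where the highest edgeR adjusted p was 0.00128 for SNHG1 and 0.0154 for SNHG15. They were lost on the deposited TPM values. There SNHG1 went from 315 ± 4.82 to 271 ± 8.66 TPM and SNHG15 from 163 ± 4.56 to 143 ± 1.68 TPM, with groups that did not overlap. On log2 of TPM plus 1 the fold changes were -0.21 (limma adjusted p = 0.0921) and -0.18 (limma adjusted p = 0.115), and 1 gene of the whole table was called. The median of all tested genes in that fit was 0.0775. SNHG5 was called lower in 7 of 17 alternatives, and its adjusted p ranged from 3.91e-09 to 0.309. Among them were DESeq2 (adjusted p = 0.00112) and limma-voom (adjusted p = 0.0259). DESeq2, which gave SNHG12 no adjusted p, called 3 of 9 hosts lower, against 6.73% of the 6913 genes with an adjusted p after its independent filtering. In each of DESeq2 without independent filtering, limma-voom and edgeR with no filter beyond a count above 0, 3 of 10 hosts were lower, against 2.41%, 2.94% and 2.44% of genes tested. SNHG5 was also called without DMSO replicate 2 or DMSO replicate 3 (edgeR adjusted p = 0.000712 and 0.0283). GAS5 and SNHG29 were called lower in 1 alternative, without DMSO replicate 2 (edgeR adjusted p = 0.0481 and 0.0346).

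**Figure D4:**
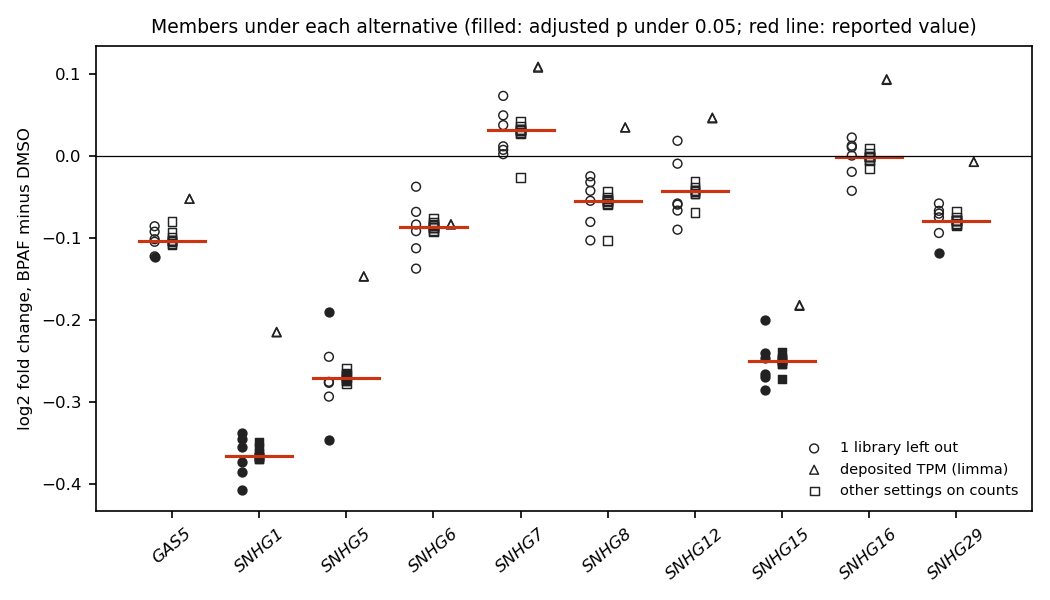
Log2 fold change (BPAF minus DMSO) of each host under 17 alternatives (16 for SNHG12, to which DESeq2 gave no adjusted p): circles leave out 1 library, triangles use the deposited TPM with limma, squares are other settings on counts, filled where the adjusted p is under 0.05, and red lines are the reported values. SNHG1 and SNHG15 stay below 0 throughout and are open for TPM alone, SNHG5 is filled in 7 of 17, and SNHG16 lies on both sides of 0.

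The cells carried the markers of their label. All 14 T-cell markers were tested and 0 were called (edgeR), with a summed level of 4471 to 4722 TPM in DMSO and 4616 to 4765 TPM in BPAF. Of 14 markers of other cell types, 5 passed the filter and 0 were called, with sums of 115 to 131 TPM in DMSO and 108 to 136 TPM in BPAF. HBA1, HBB and PECAM1 held most of that sum, and EPCAM was at 0 in every library.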

How the data were processed

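The authors deposited estimated counts per gene, with decimals, and a table of TPM values for the same 6 libraries. FastQC, cutadapt, HISAT2, featureCounts and the builds GRCh38 and hg38 are named in the submitters' processing notes without versions. No source used here says how the fractional counts and the TPM were made or which annotation was used. The 192 assembled loci without a gene identifier (0.254% of counts) were kept in the fit. Coordinates come from GENCODE release 29 for matched identifiers (58396).

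The test was the robust quasi-likelihood fit of edgeR 4.0.16 (R 4.3.3) on rounded counts, with TMM factors, the filterByExpr filter and no covariate. Adjustment of p-values (Benjamini-Hochberg) covered all 15490 tested genes. The SE is the size of the log2 fold change divided by the square root of F. The common biological coefficient of variation was 3.77%. Each p-value sets the difference between groups against the spread between libraries of a group, all from 1 cell line. Members and lists were chosen with earlier results of these data known. All 10 members were named, with up to 4 genes of smallest p per comparison list. The lncRNA genes are those GENCODE classes as lincRNA, antisense, processed transcript or another long non-coding type. Alternatives used other scalings and filters, DESeq2 1.42.0, limma 3.58.1 on voom values or log2 TPM plus 1 or 0.1, a replicate block, exon length with GC content as an offset, and each library left out. DESeq2 without independent filtering was added after seeing the data. Libraries of a group differed by more than sampling noise (chi-square 2.34 to 3.90 per degree of freedom).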

Additional observations from a re-analysis of the deposited data

How the results depend on the processing

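Over 17 alternatives, the count of hosts called higher stayed at 0, and the count called lower was 2 or 3 in 14. It was 0 on log2 TPM plus 1 and 0 on log2 TPM plus 0.1. With 1 library left out it ranged from 2 to 5, the 5 without DMSO replicate 2 being SNHG1, SNHG5, SNHG15, SNHG29 and GAS5. The median log2 fold change of the hosts was -0.029 and -0.029 for the TPM settings and -0.12 to -0.05 with 1 library left out. For the TPM settings the median of all tested genes was 0.0775 and 0.089. Over all genes, TPM gave 1 and 2 genes higher and 0 and 0 lower. DESeq2 gave 163 higher and 465 lower, and 257 higher without its independent filtering. Against 411 higher and 527 lower, the split was 461 and 400 under upper quartile scaling, and 314 and 672 with the offset. With 1 library left out, 147 to 368 genes were higher and 175 to 541 lower, the fewest without BPAF replicate 1; the numbers were 212 and 270 without DMSO replicate 1 and 165 and 227 without BPAF replicate 3. The labels do not say whether the replicate numbers pair the libraries. Correlations of same-numbered deviations were 0.001, -0.043 and 0.014, which cannot show whether such libraries were handled together. The replicate block gave 377 higher, 449 lower and 3 hosts lower, SNHG5 being added at an edgeR adjusted p of 0.0106. Signs turned for small values: SNHG16 was 0.0099 with upper quartile scaling, 0.0031 with a CPM above 1 in 3 libraries, 3.46e-05 with voom, 0.093 and 0.094 on TPM, and 0.023, 0.011, 0.00082 and 0.013 without DMSO replicate 1, DMSO replicate 3, BPAF replicate 1 and BPAF replicate 2, within -0.042 to 0.023 with 1 library left out. SNHG7 was -0.026 with the offset. SNHG8 was 0.035 and 0.035 on TPM. SNHG12 was 0.046 and 0.047 on TPM and 0.019 without BPAF replicate 3, within -0.090 to 0.019 with 1 library left out, and DESeq2 gave it no adjusted p. The cause of these changes was not tested. The host with the fewest counts, SNHG12, had 602 to 665 per library.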
